A study of Mus musculus with 16 samples.

Results

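Definitive endoderm was compared between day 4 and day 2 of differentiation, on the 2 F+CD24high D4 arrays against the 2 F+CD24high D2 arrays. These are 4 of the 16 arrays of the series, chosen by their labels for sorting gate and day. F+CD24high names cells sorted by FACS as Foxa2+/T-/CD24 high, D4 and D2 name the day, and the labels call the 2 arrays of a group biological replicates. All groups came from 1 mouse embryonic stem cell line, given in the labels as E14.1 of 129/Ola background. All carried both reporters of the T GFP/+; Foxa2 tagRFP/+ dual knock-in. In it 1 copy of T is disrupted by a GFP insertion that reports in green. In the same line 1 copy of Foxa2 is fused to tagRFP and reports in red. Both groups compared were grown on feeder cells that express Wnt3a, in endoderm medium with 12 ng/ml activin A. They differed in the day of the sort. Single-symbol probe sets were read, the brightest for each gene, which left 18716 genes, and each value is a log2 expression level from RMA, given for replicate 1 and then replicate 2.

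The other groups used were F+CD24low D4 and F+CD24low D2, Foxa2+ cells of low CD24 from the same medium and days, and ES, the undifferentiated cells. Last were T+CD24low D4 and T+CD24low D2, T+ cells of low CD24 from mesoderm medium with less activin A and with Bmp4. Every group had 2 arrays, and the few arrays limit the precision. Behind every p-value stands the scatter within groups of 2 arrays, pooled over the 8 groups. In such bulk samples, fewer cells of a type and less RNA per cell cannot be told apart. All cells were of 1 line, feeder cells were present in the cultures, and T itself was not analysed here.

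Definitive endoderm is the germ layer that forms the lining of the gut and its organs, among them liver, pancreas, lung and thyroid. High activin or Nodal signalling together with Wnt drives pluripotent cells through a streak-like state that carries Eomes, Mixl1 and Gsc, after which Foxa2, Sox17 and Gata factors hold the endoderm programme. As endoderm matures, it loses the pluripotency factors and takes on regional identity along the gut tube, and its early cells share many secreted proteins with the visceral endoderm and the later liver.

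As a mean, definitive endoderm markers were higher than in ES on both days. The mean log2 level of 9 definitive endoderm markers was 11.56 and 11.58 in F+CD24high D4 cells, against 11.36 and 11.29 in F+CD24high D2 cells. F+CD24low cells had 9.60 and 9.71 on day 4, against 9.14 and 9.04 on day 2, and the ES arrays had 7.67 and 7.82. Foxa2, on which the cells were sorted, is among the 9, so its level follows from the sort. Epcam, another of them, was at 10.79 and 11.11 in ES, against 10.76 and 11.07 in F+CD24high D2 cells. None of the 9 was called changed between the days, where 1.87% of all genes were. Sox17 was at 10.78 and 10.97 on day 4, against 10.40 and 11.09 on day 2. Gata6 was at 12.37 and 12.32 on day 4, against 12.42 and 12.34 on day 2. Cxcr4 was at 11.46 and 11.41 on day 4, against 11.12 and 11.06 on day 2. Kit was at 11.42 and 11.55 on day 4, against 11.77 and 11.36 on day 2. The D4 and D2 values overlapped for Sox17, Gata6 and Kit and were separate for Cxcr4. Of the genes used in the sort, Foxa2 and Cd24a were not called, and T was not analysed. Foxa2 was at 10.41 and 10.33 on day 4, against 11.17 and 10.70 on day 2 (-0.57 ± 0.21, adjusted p = 0.143). Cd24a was at 13.35 and 13.45 on day 4, against 13.31 and 13.16 on day 2 (0.17 ± 0.12, adjusted p = 0.504).

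The D4 arrays were near-identical, and the D2 arrays were not. No gene differed by more than 1 log2 unit between the 2 D4 arrays, whereas 123 genes (0.657%) did between the 2 D2 arrays. Of these, 104 (0.556%) were lower in replicate 1 and 19 (0.102%) higher. Over the 6 other groups this number lay between 4 and 96, the 96 being that of the ES arrays. Over genes, D2 replicate 2 correlated with the D4 arrays at r = 0.986 and 0.987, and D2 replicate 1 at 0.979 and 0.977. These are values across genes, with no test. Each result is therefore given with both D2 values.

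Between the days 350 genes (1.87%) were called, meaning an absolute log2 difference above 1 with a Benjamini-Hochberg adjusted p below 0.05 in limma. Of these, 230 (1.23%) were higher on day 4 and 120 (0.641%) lower, and the median over all genes was 0.01. The excess of higher genes rests on D2 replicate 1, without which 163 were higher and 162 lower, against 378 and 153 without D2 replicate 2. Both D4 arrays lay above both D2 arrays in 5294 genes (28.3%) and below them in 4650 (24.8%), and all 350 called genes were among these. Among the 230 higher genes D2 replicate 1 was below replicate 2, and so farther from day 4, in 193. It was above replicate 2 in 73 of the 120 lower genes and in 10018 of the 18366 genes not called. The day difference was larger than the gap between the D2 arrays in 224 of the 230 and in all 120. Without D2 replicate 2 the count was 531, and without D2 replicate 1 it was 325, of which 235 were among the 350. A fit of the 4 arrays alone, with few degrees of freedom, called 48 genes, 47 of them among the 350. Of the genes named here those 47 hold Agt, Apoa1, Cachd1, Ccnd1, Cdk6, Cpm, Eya4, Fgfr2, Fndc3c1, Gckr, Muc13, Phlda2, Rarres1, Rfx6, Sec14l2, Sp5, Vil1 and Ypel2. Every other call named rests on the spread pooled over the 16 arrays.

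**Figure D1:**
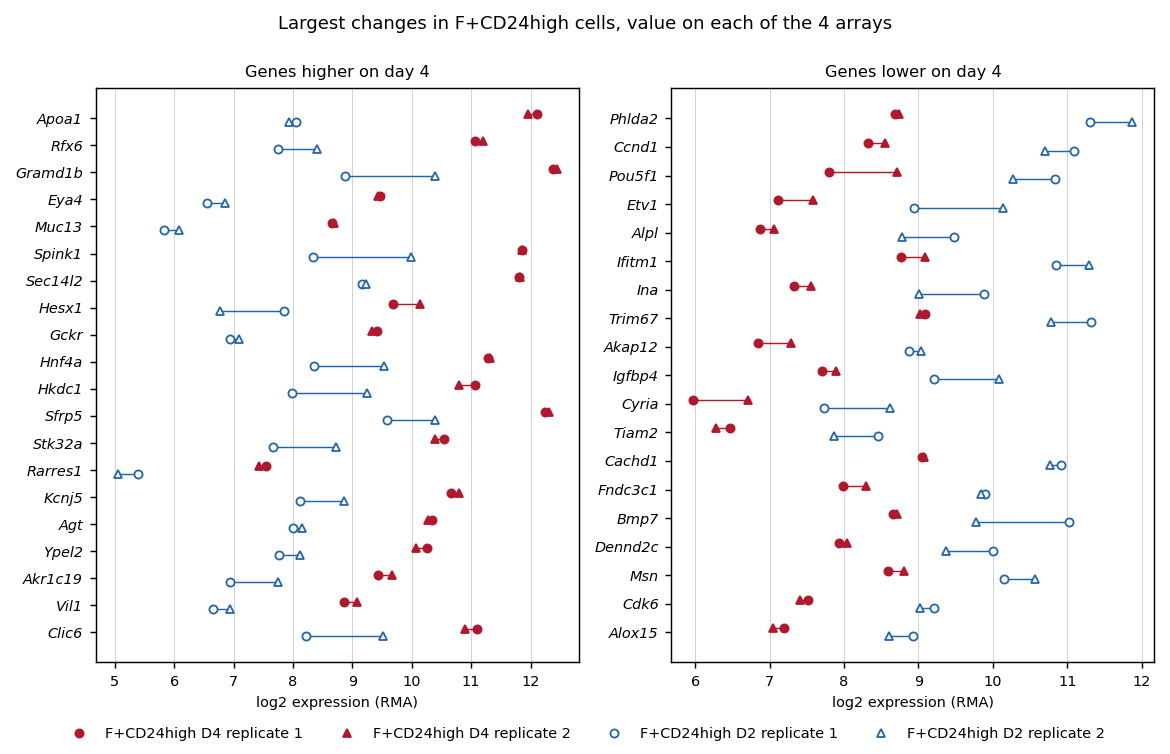
Log2 expression (RMA, x axis) of the genes with the largest called changes, higher on day 4 at left and lower at right, 1 gene a line. Filled red symbols are the 2 F+CD24high D4 arrays and open blue symbols the 2 F+CD24high D2 arrays (circle, replicate 1, triangle, replicate 2), with a line joining the 2 arrays of a day. In every gene shown both D4 arrays lie on 1 side of both D2 arrays, and the D2 pair is often the wider, as for Spink1 at 11.86 and 11.85 on day 4, against 8.34 and 9.99 on day 2.

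Several secreted proteins of liver and visceral endoderm rose. Apoa1, the main protein of high-density lipoprotein, was at 12.10 and 11.97 on day 4, against 8.04 and 7.94 on day 2, a 16.5-fold difference (4.04 ± 0.17, adjusted p = 6.23e-07). The pairs lay far apart and the arrays of each day were close, and Apoa1 was the gene of highest difference among the 18716. Apob, the core protein of low-density lipoprotein, was at 8.997 and 8.85 on day 4, against 6.54 and 7.38 on day 2 (1.96 ± 0.22, adjusted p = 0.000352). Rbp4, which carries retinol in serum, was at 9.60 and 9.77 on day 4, against 8.04 and 7.61 on day 2 (1.86 ± 0.13, adjusted p = 1.52e-05). Agt, the precursor of angiotensin, was at 10.35 and 10.27 on day 4, against 8.001 and 8.14 on day 2 (2.24 ± 0.13, adjusted p = 8.18e-06). None of these sets overlapped between the days, and each difference stayed above 1 with any 1 array left out. Of 23 measured genes of visceral endoderm uptake and serum proteins, Apoa1, Apob, Rbp4 and Hnf4a rose, none fell, and the median was 0.21. Over all genes 1.23% were called higher and 0.641% lower, and every list count below stands against these shares. A list with no call is near them. Mttp, which loads lipid onto Apob, was at 8.38 and 8.36 on day 4, against 7.63 and 7.65 on day 2 (0.73, adjusted p = 0.000782), and its difference of 0.73 stayed under 1. Apoe, carried by many lipoproteins, was at 12.29 and 12.24 on day 4, against 11.66 and 12.04 on day 2 (0.41, adjusted p = 0.217).

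The rise did not take in all markers of visceral endoderm, the extra-embryonic layer that also secretes these proteins. Of its 7 markers 3 rose (Apoa1, Apob and Hnf4a), and the mean level of the 7 was 8.67 and 8.59 on day 4, against 6.92 and 7.69 on day 2. Afp, alpha-fetoprotein and the classical marker of that layer, was at 6.49 and 6.30 on day 4, against 6.61 and 6.43 on day 2 (-0.12, adjusted p = 0.534), which is also its level in ES (6.30 and 6.21). Ttr, transthyretin, was at 6.46 and 6.26 on day 4, against 5.53 and 5.33 on day 2 (0.93, adjusted p = 0.00105), below the fold needed for a call, which it passed without D2 replicate 1 and without D4 replicate 2 (1.03 each). Amn, the partner of cubilin in uptake, was at 7.61 and 7.79 on day 4, against 7.26 and 7.48 on day 2 (0.33, adjusted p = 0.113), and Cubn itself at 7.76 and 7.64 on day 4, against 6.09 and 9.71 on day 2, with the D4 arrays between the 2 D2 arrays. What part visceral endoderm-like cells had in the rise was not tested.

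Around this group stood enzymes and carriers of the gut and liver epithelium. Sec14l2, a lipid-transfer protein, was at 11.81 and 11.82 on day 4, against 9.16 and 9.22 on day 2 (2.62 ± 0.084, adjusted p = 7.71e-08). Muc13, a transmembrane mucin of gut epithelium, was at 8.65 and 8.69 on day 4, against 5.82 and 6.09 on day 2 (2.72 ± 0.12, adjusted p = 8.85e-07). Gckr, the inhibitor of glucokinase in liver, was at 9.42 and 9.33 on day 4, against 6.94 and 7.09 on day 2 (2.36 ± 0.14, adjusted p = 8.18e-06). In these 3 the D2 arrays lay close together. Spink1, a secreted trypsin inhibitor and a marker of endoderm, was at 11.86 and 11.85 on day 4, against 8.34 and 9.99 on day 2 (2.69 ± 0.38, adjusted p = 0.00169), or 1.87 without D2 replicate 1 and 3.51 without D2 replicate 2. Gramd1b, which moves cholesterol from the plasma membrane to the endoplasmic reticulum, was at 12.38 and 12.44 on day 4, against 8.87 and 10.38 on day 2 (2.79 ± 0.33, adjusted p = 0.000595), or 2.03 and 3.54 in the same order. Hkdc1, of the hexokinase family, was at 11.07 and 10.80 on day 4, against 7.98 and 9.24 on day 2 (2.32 ± 0.28, adjusted p = 0.000688), or 1.69 and 2.96. In Spink1, Gramd1b and Hkdc1 D2 replicate 2 lay between replicate 1 and day 4, so the size of the rise turns on the D2 array it is read against. The difference stayed above 1 against each, but a fit with 1 D2 array cannot weigh the gap between the 2.

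Several channels and carriers rose, some with D2 arrays far apart. Clic6, of the chloride intracellular channel family, was at 11.10 and 10.90 on day 4, against 8.23 and 9.52 on day 2 (2.13 ± 0.30, adjusted p = 0.00166, or 1.48 without D2 replicate 1 and 2.77 without D2 replicate 2). Slc34a2, a sodium-phosphate cotransporter, was at 10.27 and 10.31 on day 4, against 7.60 and 8.88 on day 2 (2.05 ± 0.32, adjusted p = 0.00287, or 1.41 and 2.69 in the same order). Kcnj5, an inward-rectifier potassium channel, was at 10.67 and 10.80 on day 4, against 8.12 and 8.86 on day 2 (2.25 ± 0.20, adjusted p = 9.27e-05). All 3 rose under either D2 array. Slc38a5, a glutamine transporter, was at 11.18 and 11.21 on day 4, against 9.24 and 9.66 on day 2 (1.75 ± 0.15, adjusted p = 8.71e-05) and was the only called member of 19 glucose, lactate and amino acid transporters, whose median was 0.02. Vil1, villin of the microvillus core, was at 8.85 and 9.07 on day 4, against 6.65 and 6.94 on day 2 (2.17 ± 0.14, adjusted p = 1.3e-05). Cpm, the membrane enzyme carboxypeptidase M, was at 7.96 and 8.05 on day 4, against 6.21 and 6.38 on day 2 (1.71 ± 0.16, adjusted p = 0.000118). Vil1 and Cpm had D2 arrays close together. Slc35g2, of a solute carrier family, was at 10.58 and 10.76 on day 4, against 7.91 and 9.18 on day 2 (2.12 ± 0.33, or 1.49 and 2.76). Akr1c19, an aldo-keto reductase, was at 9.43 and 9.66 on day 4, against 6.94 and 7.74 on day 2 (2.20 ± 0.25). The kinase gene Stk32a was at 10.54 and 10.39 on day 4, against 7.66 and 8.72 on day 2 (2.28 ± 0.24). In these 3 replicate 2 was again the D2 array nearer to day 4. Ypel2 was at 10.26 and 10.08 on day 4, against 7.77 and 8.11 on day 2 (2.23 ± 0.15).

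Among transcription factors the rise reached genes of liver, foregut, pancreas and pharynx. Hnf4a, the nuclear receptor that governs liver and gut epithelium, was at 11.29 and 11.32 on day 4, against 8.35 and 9.54 on day 2 (2.36 ± 0.29, adjusted p = 0.000635), or 1.76 without D2 replicate 1 and 2.96 without D2 replicate 2. Foxa3, a pioneer factor of the Foxa family, was at 10.96 and 10.83 on day 4, against 8.51 and 9.93 on day 2 (1.68 ± 0.33, adjusted p = 0.0108). D2 replicate 2 was the nearer to day 4 in both. The Foxa3 call was lost without D2 replicate 1 (0.97) and also without either D4 array (1.61 with adjusted p = 0.08 without replicate 1, and 1.74 with 0.0654 without replicate 2). Hnf4a and Foxa3 were the 2 called of 13 definitive endoderm factors, none fell, and the median of the 13 was 0.34. Foxa1, also of the Foxa family, was at 11.92 and 12.06 on day 4, against 11.18 and 11.76 on day 2 (0.52, adjusted p = 0.22). Gata4 was at 12.02 and 12.08 on day 4, against 11.03 and 11.41 on day 2 (0.83, adjusted p = 0.00329). Hhex, a homeobox factor of liver and thyroid buds, was at 11.08 and 11.08 on day 4, against 10.25 and 10.21 on day 2 (0.85, adjusted p = 0.00181). Both passed the p threshold with a difference under 1, and Gata4 reached 1.02 without D2 replicate 2.

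Some regional factors of the foregut and its organs also rose. Rfx6, needed for pancreatic and gut endocrine cells, was at 11.06 and 11.20 on day 4, against 7.75 and 8.40 on day 2 (3.06 ± 0.23, adjusted p = 3.36e-05, 8.32-fold). Eya4, a transcriptional coactivator and phosphatase, was at 9.47 and 9.42 on day 4, against 6.56 and 6.86 on day 2 (2.74 ± 0.13, adjusted p = 1.85e-06). Hesx1, a repressor of the most anterior endoderm and forebrain, was at 9.68 and 10.14 on day 4, against 7.84 and 6.78 on day 2 (2.60 ± 0.31, adjusted p = 0.0006). These 3 were at 6.79 and 6.09, 6.78 and 6.38 and 5.92 and 6.20 in ES, close to or below their D2 levels. Hesx1 ran against the usual order of the D2 arrays, with replicate 1 the higher. Isl1, a LIM-homeobox factor of foregut and heart, was at 8.50 and 8.80 on day 4, against 6.58 and 7.05 on day 2 (1.84 ± 0.19, adjusted p = 0.000232). Pax9, a factor of the pharyngeal pouches, was at 7.80 and 8.20 on day 4, against 6.92 and 7.03 on day 2 (1.02 ± 0.17, adjusted p = 0.00403), at the edge of the fold threshold, and its call was lost without D2 replicate 1 (0.97) and without D4 replicate 2 (0.82). Sfrp5, a secreted Wnt inhibitor of the foregut, was at 12.25 and 12.32 on day 4, against 9.59 and 10.40 on day 2 (2.29 ± 0.23, adjusted p = 0.000182). Sfrp5, Hesx1, Pax9 and Isl1 were the 4 that rose of 21 anterior endoderm and foregut genes, where none fell and the median was 0.17. Otx2, the head organizer factor, was at 13.11 and 13.17 on day 4, against 12.90 and 12.73 on day 2 (0.33, adjusted p = 0.156). No member of 14 posterior genes was called, where 1.87% of all genes were, and their median was -0.06. Tbx20, a T-box factor best known from the heart, was at 10.18 and 10.13 on day 4, against 7.71 and 8.37 on day 2 (2.11 ± 0.26, adjusted p = 0.000782), and Tbx20 and Isl1 were the 2 that rose of 18 mesoderm genes (median -0.07). The 6 mesoderm markers averaged 7.21 and 7.18 on day 4, against 7.12 and 7.27 on day 2, and none was called.

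The stretch of 250 bases before the RefSeq start (mouse build GRCm38.p6) was read for 14680 tested genes, among them 179 of the 230 higher genes and 86 of the 120 lower genes. The promoters shown are those of Apoa1, the gene of largest rise, of Muc13, which holds an Hnf4 motif, and of Hnf4a, the gene of that factor, written 5′ to 3′ on the gene's strand. In Muc13, at its second listed start (chr16:33794239-33794488, plus strand), capitals mark the letters CAAAGTCCA of the Hnf4 motif, read on the opposite strand and beginning 186 bases before the start. In Hnf4a, at its first listed start (chr2:163506607-163506856, plus strand), they mark the Gata letters AGATAA, beginning 52 bases before it. Apoa1 (chr9:46228380-46228629, plus strand) held none of the 5 motifs searched and has no capitals. The promoters of Rfx6, Eya4, Sec14l2, Phlda2 and Pou5f1 and the other listed starts of Muc13 and Hnf4a, not shown, held none of the 5 either.
Apoa1: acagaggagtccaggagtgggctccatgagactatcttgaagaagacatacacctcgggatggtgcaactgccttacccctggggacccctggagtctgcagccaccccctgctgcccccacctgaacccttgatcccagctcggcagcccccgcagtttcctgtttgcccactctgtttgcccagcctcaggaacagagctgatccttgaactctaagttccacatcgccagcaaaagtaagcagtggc
Muc13: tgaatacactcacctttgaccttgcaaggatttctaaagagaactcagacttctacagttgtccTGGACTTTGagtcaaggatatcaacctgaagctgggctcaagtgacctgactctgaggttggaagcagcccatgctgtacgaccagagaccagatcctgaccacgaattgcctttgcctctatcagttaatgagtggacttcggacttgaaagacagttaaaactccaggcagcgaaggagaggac
Hnf4a: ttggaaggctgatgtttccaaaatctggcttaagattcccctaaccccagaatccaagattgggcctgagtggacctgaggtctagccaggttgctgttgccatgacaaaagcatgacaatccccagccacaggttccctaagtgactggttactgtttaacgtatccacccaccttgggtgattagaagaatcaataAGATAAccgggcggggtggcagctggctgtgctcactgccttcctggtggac
Searched on both strands, the Foxa letters TGTTTAC were in 6 of 179 promoters of higher genes (3.35%), 4 of 86 of lower genes (4.65%) and 2.99% of all 14680. The Hnf4 letters were in 2 of 179 (1.12%), 0 of 86 and 71 of 14680 (0.484%), and the Gata letters in 11 (6.15%), 7 (8.14%) and 9.09%. The Tcf/Lef letters CTTTGAT were in 6 (3.35%), 2 (2.33%) and 3.17%, and the octamer ATGCAAAT in 3 (1.68%), 0 and 1.7%. A match in this window is a description and not a bound site. Only these exact letters were searched, so the lack of a match does not mean that no site is there.

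Core pluripotency genes fell in part. Pou5f1, Oct4 and the master factor of the pluripotent state, was at 7.79 and 8.71 on day 4, against 10.84 and 10.27 on day 2 (-2.30 ± 0.25, adjusted p = 0.000313, 4.93-fold lower). Nanog was at 9.39 and 9.78 on day 4, against 11.17 and 11.07 on day 2 (-1.54 ± 0.12, adjusted p = 4.18e-05). Tdgf1, the Nodal coreceptor Cripto, was at 10.997 and 11.01 on day 4, against 12.73 and 12.32 on day 2 (-1.52 ± 0.14, adjusted p = 9.56e-05). In all 3 every D4 array was below every D2 array. The 2 D4 arrays differed by 0.92 for Pou5f1, the widest gap of the 120 lower genes on that day. These were the 3 that fell of 12 core and general pluripotency genes, none rose, and the median was -0.60. Sox2, the partner of Pou5f1, was at 7.01 and 7.37 on day 4, against 7.89 and 7.95 on day 2 (-0.73, adjusted p = 0.0137), under the fold threshold. The fall of Pou5f1 and Nanog began from a level already under that of the stem cells, since ES had 12.47 and 12.59 for Pou5f1 and 12.01 and 12.16 for Nanog. The 6 pluripotent markers averaged 7.66 and 8.02 on day 4, against 8.68 and 8.46 on day 2, with ES at 11.46 and 11.85.

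One naive pluripotency gene went the other way. Tfcp2l1, a factor of the naive state that is also found in epithelia such as the kidney duct, was at 10.06 and 10.18 on day 4, against 8.48 and 8.91 on day 2 (1.43 ± 0.14, adjusted p = 0.000182) and was the 1 called of 13 naive genes (median -0.13). Alpl, the alkaline phosphatase used to stain stem cells, was at 6.88 and 7.06 on day 4, against 9.47 and 8.78 on day 2 (-2.16 ± 0.19, adjusted p = 7.8e-05). Ifitm1, a membrane protein of early epiblast and germ cells, was at 8.76 and 9.08 on day 4, against 10.84 and 11.29 on day 2 (-2.15 ± 0.16, adjusted p = 2.57e-05). No member of the epiblast list (10 genes) or of the 7 primordial germ cell genes was called, where 1.87% of all genes were.

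Genes of the primitive streak fell in part. Mixl1, a homeobox factor of the streak, was at 10.78 and 10.94 on day 4, against 12.62 and 12.17 on day 2 (-1.53 ± 0.17, adjusted p = 0.000313), with the D4 level still well over that of ES (7.55 and 7.55). Sp5, a Wnt target in the streak, was at 8.37 and 8.41 on day 4, against 10.02 and 9.77 on day 2 (-1.50 ± 0.12, adjusted p = 3.86e-05). Fst, follistatin, which binds activin, was at 7.38 and 7.46 on day 4, against 8.28 and 9.09 on day 2 (-1.26 ± 0.29, adjusted p = 0.0239). The first 2 kept a fall of more than 1 with each array left out. The Fst call was lost without D2 replicate 2 (-0.86, adjusted p = 0.0948) and without either D4 array (adjusted p = 0.128 and 0.118). These 3 fell of 13 anterior streak and organizer genes, none rose, and the median was -0.40. Eomes, the T-box factor that opens the endoderm programme, was at 12.05 and 12.05 on day 4, against 12.24 and 12.19 on day 2 (-0.17, adjusted p = 0.602). Gsc, the organizer homeobox gene, was at 11.32 and 10.97 on day 4, against 12.33 and 11.33 on day 2 (-0.68, adjusted p = 0.172). Its D4 replicate 1 was level with D2 replicate 2, and without D2 replicate 2 the difference was -1.18. Of the 15 Nodal and activin genes, Tdgf1 and Fst fell and the median was 0.01. Nodal was at 10.86 and 10.95 on day 4, against 10.70 and 10.78 on day 2 (0.17, adjusted p = 0.399). Smad7, the feedback inhibitor, was at 9.75 and 9.52 on day 4, against 8.70 and 9.10 on day 2 (0.73, adjusted p = 0.00824).

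A cyclin, its kinase and an imprinted gene fell. Phlda2, an imprinted gene that restrains placental growth, was at 8.69 and 8.74 on day 4, against 11.30 and 11.87 on day 2 (-2.88 ± 0.17, adjusted p = 8.18e-06), 7.34-fold lower and the lowest difference among the 18716 genes. Ccnd1, cyclin D1, was at 8.33 and 8.55 on day 4, against 11.09 and 10.71 on day 2 (-2.46 ± 0.15, adjusted p = 9.19e-06). Cdk6, its kinase partner, was at 7.52 and 7.41 on day 4, against 9.21 and 9.02 on day 2 (-1.65 ± 0.12, adjusted p = 2.81e-05). Both pairs of arrays were far apart for these 3 genes. Ccnd1 and Cdk6 were the only called members of 14 G1 cyclins and Cdk inhibitors, with a median of -0.06. No member of 18 S phase genes (median -0.16) or 17 G2 and M phase genes (0.03) was called, where 1.87% of all genes were. Pmaip1, a p53 target that promotes cell death, was at 7.57 and 7.44 on day 4, against 8.42 and 8.60 on day 2 (-1.004 ± 0.16, adjusted p = 0.00315), the only one called of 12 p53 targets. It dropped under the fold threshold without D2 replicate 2 (-0.91), without D4 replicate 2 (-0.94) and with the arrays centred on their medians (-0.99).

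Further large falls were spread over signalling, cytoskeletal and membrane genes. Trim67, a ubiquitin ligase gene, was at 9.09 and 9.02 on day 4, against 11.32 and 10.78 on day 2 (-1.996 ± 0.23). Ina, the neurofilament protein alpha-internexin, was at 7.32 and 7.55 on day 4, against 9.87 and 9.002 on day 2 (-1.9997 ± 0.23). Akap12, a scaffold for protein kinase A, was at 6.84 and 7.28 on day 4, against 8.88 and 9.03 on day 2 (-1.89 ± 0.15). Of these 3, Trim67 and Ina were higher in D2 replicate 1. Igfbp4, which binds insulin-like growth factors, was at 7.70 and 7.89 on day 4, against 9.20 and 10.09 on day 2 (-1.85 ± 0.23). Cachd1, of the calcium channel subunit family, was at 9.04 and 9.07 on day 4, against 10.91 and 10.76 on day 2 (-1.78 ± 0.11). Msn, moesin, a linker of membrane and actin, was at 8.59 and 8.81 on day 4, against 10.15 and 10.57 on day 2 (-1.66 ± 0.18). In none of the 6 did the days overlap. Alox15, a lipoxygenase, was at 7.20 and 7.04 on day 4, against 8.93 and 8.61 on day 2 (-1.65 ± 0.19). Tiam2, an activator of Rac, was at 6.47 and 6.29 on day 4, against 8.46 and 7.87 on day 2 (-1.79 ± 0.18). Cyria, a Rac-binding protein, was at 5.98 and 6.71 on day 4, against 7.73 and 8.62 on day 2 (-1.83 ± 0.28), with arrays apart on both days. Dennd2c, an activator of Rab proteins, was at 7.93 and 8.05 on day 4, against 10.01 and 9.37 on day 2 (-1.70 ± 0.19). Fndc3c1 was at 7.99 and 8.29 on day 4, against 9.89 and 9.84 on day 2 (-1.73 ± 0.17).

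**Figure D2:**
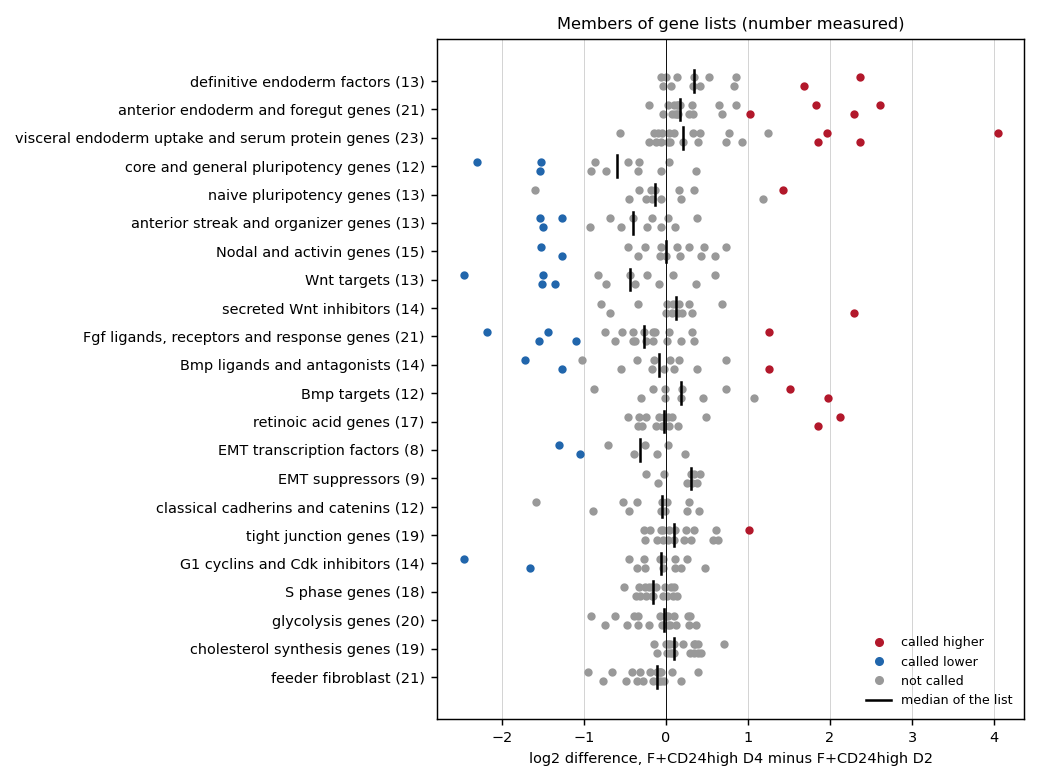
Log2 difference, F+CD24high D4 minus F+CD24high D2 (x axis), of each measured member of 22 gene lists, 1 list a line with the number measured. Red points were called higher, blue points called lower and grey points not called, and the black bar is the median of the list. Pluripotency genes and Wnt targets have medians of -0.60 and -0.44, and Apoa1 is the point farthest to the right at 4.04.

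Targets of canonical Wnt signalling fell in part. Axin2, the feedback inhibitor in the pathway and its most used readout, was at 8.29 and 8.33 on day 4, against 9.79 and 9.53 on day 2 (-1.35 ± 0.14, adjusted p = 0.000303). Myc, a transcription factor gene regulated by Wnt and other signals, was at 9.69 and 9.61 on day 4, against 11.55 and 10.76 on day 2 (-1.51 ± 0.20, adjusted p = 0.00104). With Sp5 and Ccnd1 they were the 4 that fell of 13 Wnt targets, none rose, and the median was -0.44. Nkd1, a negative feedback gene, was at 8.57 and 8.46 on day 4, against 9.44 and 9.24 on day 2 (-0.83, adjusted p = 0.000255). Znrf3, a ubiquitin ligase that removes Wnt receptors, was at 9.18 and 9.10 on day 4, against 9.89 and 9.86 on day 2 (-0.74, adjusted p = 0.000692). Both stayed under the fold threshold. Lgr5, the R-spondin receptor, was at 9.48 and 9.63 on day 4, against 8.95 and 8.97 on day 2 (0.60, adjusted p = 0.0207), the other way. Among 14 secreted Wnt inhibitors only Sfrp5 was called (median 0.12). Dkk1, which blocks the Lrp coreceptors, was at 13.26 and 13.31 on day 4, against 12.86 and 13.09 on day 2 (0.31, adjusted p = 0.34). Sfrp1 was at 13.55 and 13.59 on day 4, against 12.75 and 13.02 on day 2 (0.68, adjusted p = 0.0684). Neither was called. Among 18 Wnt ligands Wnt5a, a mostly non-canonical ligand, rose, at 7.47 and 7.51 on day 4, against 6.27 and 6.57 on day 2 (1.07 ± 0.11, adjusted p = 0.000236), and dropped under the fold threshold without D2 replicate 1 (0.92).

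Of the Fgf pathway genes a few were called, in both directions. The receptor Fgfr2, common in epithelium, was at 10.05 and 10.09 on day 4, against 8.87 and 8.76 on day 2 (1.26 ± 0.15, adjusted p = 0.000509), while Fgfr1 was at 10.53 and 10.53 on day 4, against 11.62 and 11.65 on day 2 (-1.10 ± 0.13, adjusted p = 0.00047). Of the response genes 3 fell. Etv5, an Ets factor induced by Fgf, was at 8.42 and 8.39 on day 4, against 10.06 and 9.61 on day 2 (-1.44 ± 0.13, adjusted p = 9.91e-05). Etv1, of the same family, was at 7.12 and 7.59 on day 4, against 8.94 and 10.14 on day 2 (-2.19 ± 0.28, adjusted p = 0.001, or -2.79 without D2 replicate 1 and -1.58 without D2 replicate 2). Dusp4, a phosphatase that turns off Erk and related kinases, was at 8.96 and 8.85 on day 4, against 10.59 and 10.32 on day 2 (-1.55 ± 0.14, adjusted p = 0.000106). Of 21 Fgf ligands, receptors and response genes 1 rose and these 4 fell, with a median of -0.26. Spry4, an inhibitor of the pathway, was at 10.66 and 10.54 on day 4, against 11.60 and 10.84 on day 2 (-0.62, adjusted p = 0.0953), and its D2 arrays lay apart.

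Bmp genes moved in both directions. Bmp2 was at 10.51 and 10.70 on day 4, against 9.27 and 9.44 on day 2 (1.25 ± 0.18, adjusted p = 0.00209). Bmp7 was at 8.65 and 8.71 on day 4, against 11.03 and 9.77 on day 2 (-1.71 ± 0.29, adjusted p = 0.00516). Both pairs were separate, but the D2 arrays of Bmp7 differed by 1.26, and its difference was -1.09 without D2 replicate 1 and -2.34 without D2 replicate 2. Of 14 Bmp ligands and antagonists Bmp2 rose and Bmp7 and Fst fell (median -0.09). Of 12 Bmp targets 2 rose, and the median was 0.19. Gata3, a zinc-finger factor, was at 10.13 and 9.76 on day 4, against 7.56 and 8.37 on day 2 (1.98 ± 0.27, adjusted p = 0.00119). Id2, an inhibitor of helix-loop-helix factors, was at 10.21 and 10.38 on day 4, against 8.37 and 9.21 on day 2 (1.51 ± 0.26, adjusted p = 0.00515). The Id2 call was lost without D4 replicate 2 (1.42, adjusted p = 0.0554). Id1 was at 10.32 and 10.18 on day 4, against 8.55 and 9.81 on day 2 (1.07, adjusted p = 0.091), or 1.70 without D2 replicate 2. With both D2 arrays it was called only when the 16000 brightest probe sets were tested (adjusted p = 0.0493).

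The retinoic acid, Notch, Hedgehog and guidance lists each held 1 or 2 called genes, where 1.87% of all genes were called. Rarb, a receptor gene induced by retinoic acid, was at 9.54 and 9.69 on day 4, against 7.20 and 7.79 on day 2 (2.12 ± 0.16, adjusted p = 3.36e-05), and Rarb and Rbp4 were the 2 that rose of 17 retinoic acid genes (median -0.03). Rarres1, a membrane protein induced by retinoids and outside that list, was at 7.55 and 7.43 on day 4, against 5.39 and 5.05 on day 2 (2.27 ± 0.24, adjusted p = 0.000303). Jag1, a Notch ligand and the only one called of 15 Notch genes, was at 10.03 and 10.13 on day 4, against 11.08 and 11.16 on day 2 (-1.04 ± 0.089, adjusted p = 7.17e-05). It slipped just under the fold threshold without D2 replicate 2 (-0.997) and without D4 replicate 1 (-0.99). In the Hedgehog pathway, Hhip, which binds the ligand, was at 7.95 and 8.14 on day 4, against 6.25 and 7.13 on day 2 (1.36 ± 0.22, adjusted p = 0.00337). Gli3, the pathway's repressor, was at 7.73 and 7.57 on day 4, against 8.79 and 8.52 on day 2 (-1.005 ± 0.15, adjusted p = 0.00272), 1 up and 1 down of 12. The Hhip difference was 0.92 without D2 replicate 1 and not called. That of Gli3 lay under 1 in size without D2 replicate 1 (-0.87), without D4 replicate 2 (-0.92) and with the arrays centred on their medians (-0.99). Of 24 guidance genes, Plxna4, a semaphorin receptor, rose, at 9.30 and 9.41 on day 4, against 7.98 and 8.24 on day 2 (1.24 ± 0.14, adjusted p = 0.000343), and Sema5a fell, at 7.54 and 7.67 on day 4, against 8.56 and 8.79 on day 2 (-1.07 ± 0.13, adjusted p = 0.000815), which without D2 replicate 2 was -0.96 and not called.

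No member of 12 classical cadherins and catenins was called, where 1.87% of all genes were. The lowest of them, the mesenchymal cadherin Cdh11, had a difference of -1.58 (adjusted p = 0.0531), or -2.54 without D2 replicate 1 and -0.62 without D2 replicate 2. Cdh1, E-cadherin, was at 12.97 and 13.12 on day 4, against 12.77 and 12.80 on day 2 (0.26, adjusted p = 0.126). Cdh2, N-cadherin, was at 11.39 and 11.39 on day 4, against 11.83 and 12.01 on day 2 (-0.53, adjusted p = 0.0842). Epcam, an epithelial adhesion molecule, was at 11.36 and 11.36 on day 4, against 10.76 and 11.07 on day 2 (0.45, adjusted p = 0.121). Of 8 transcription factors of epithelial to mesenchymal transition (EMT) 2 fell and none rose, with a median of -0.32. Snai2 was at 6.67 and 6.68 on day 4, against 7.26 and 8.16 on day 2 (-1.04 ± 0.27, adjusted p = 0.039). Twist1 was at 7.62 and 7.61 on day 4, against 8.55 and 9.29 on day 2 (-1.31 ± 0.31, adjusted p = 0.0273). These 2 calls were weak. Without D2 replicate 2, the higher array in both, the difference was -0.59 (adjusted p = 0.151) for Snai2 and -0.94 (adjusted p = 0.11) for Twist1. Both were lost without D4 replicate 1 (adjusted p = 0.164 and 0.127) and without D4 replicate 2 (0.178 and 0.145). Snai1, the factor most used in the streak, was at 8.33 and 8.14 on day 4, against 9.01 and 8.88 on day 2 (-0.71, adjusted p = 0.0187). Zeb1 was at 7.16 and 7.07 on day 4, against 7.09 and 7.65 on day 2 (-0.26, adjusted p = 0.631). Zeb2 was at 6.50 and 6.38 on day 4, against 6.44 and 7.21 on day 2 (-0.39, adjusted p = 0.338). Of 9 EMT suppressors none was called and the median was 0.31. Vim, vimentin, the mesenchymal filament protein, was at 11.41 and 11.72 on day 4, against 12.12 and 13.20 on day 2 (-1.10 ± 0.25, adjusted p = 0.026). This call was lost without D2 replicate 2 (-0.56), without D4 replicate 1 (adjusted p = 0.173) and without D4 replicate 2 (adjusted p = 0.0772).

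Single members of the epithelial lists rose. Ocln, occludin of the tight junction, was at 9.89 and 10.13 on day 4, against 8.98 and 9.01 on day 2 (1.02 ± 0.12, adjusted p = 0.000476), the 1 called of 19 (median 0.09), and was 0.89 without D4 replicate 2. Dsc2, a desmosomal cadherin, was at 10.14 and 10.29 on day 4, against 8.68 and 9.50 on day 2 (1.13 ± 0.23, adjusted p = 0.0152), the 1 called of 15 keratin and desmosome genes (median 0.09). Its call was lost without D2 replicate 1 (0.72), without D4 replicate 1 (adjusted p = 0.0684) and without D4 replicate 2 (adjusted p = 0.118). Vil1 was the 1 called of 20 apical-basal polarity genes (median 0.23). On the matrix side Hspg2, the basement membrane proteoglycan perlecan, fell, at 8.62 and 8.56 on day 4, against 9.71 and 9.73 on day 2 (-1.13 ± 0.14, adjusted p = 0.000905), alone of 22 basement membrane genes (median -0.07). Adam19, a membrane metalloproteinase, fell alone of 21 metalloproteinases and inhibitors (median -0.08), at 9.26 and 9.52 on day 4, against 10.86 and 10.64 on day 2 (-1.36 ± 0.12, adjusted p = 9.53e-05). Metabolic lists held a single call. None of 20 glycolysis genes (median -0.03) or 19 cholesterol synthesis genes (0.10) was called, where 1.87% of all genes were. Of 16 hypoxia response genes (0.25) Egln3, the oxygen-dependent prolyl hydroxylase, rose, at 9.97 and 10.16 on day 4, against 7.67 and 8.68 on day 2 (1.89 ± 0.26, adjusted p = 0.00157). None of 15 stress and immediate early genes was called (0.13).

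The genes in which the D2 arrays disagreed most are given as values, with no test between 2 arrays. Srgn, the proteoglycan serglycin, was at 12.88 and 13.02 on day 4, against 7.98 and 12.33 on day 2 (2.79 ± 0.96, adjusted p = 0.117), the largest gap between D2 arrays. Without D2 replicate 2 its difference was 4.96. Cubn, the uptake receptor cubilin, was at 7.76 and 7.64 on day 4, against 6.09 and 9.71 on day 2. Dab2, an adaptor of endocytosis, was at 9.90 and 10.04 on day 4, against 7.34 and 10.11 on day 2 (1.25, adjusted p = 0.302). For Srgn and Dab2, D2 replicate 2 was at the D4 level and replicate 1 far under it. Read without D2 replicate 1 the Cubn difference was -2.02, and without D2 replicate 2 it was 1.60, so that 1 array decides the direction. The difference of Dab2 was -0.14 without D2 replicate 1 and 2.63 without D2 replicate 2. In F+CD24low D2 cells Srgn was at 12.23 and 11.89, Cubn at 10.46 and 9.77 and Dab2 at 10.51 and 10.18. Nes, which was higher in D2 replicate 1 (8.93 and 7.34), was at 10.33 and 10.00 there. Over genes, D2 replicate 1 correlated with the F+CD24low D2 arrays at r = 0.971 and 0.972, and D2 replicate 2 at 0.973 and 0.972.

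A second set was highest in D2 replicate 2. Lama1, a laminin chain of basement membrane, was at 7.02 and 7.09 on day 4, against 7.23 and 9.29 on day 2. Col1a1, the fibrillar collagen, was at 8.39 and 8.25 on day 4, against 8.14 and 10.40 on day 2. Cdh11, a mesenchymal cadherin, was at 6.97 and 7.34 on day 4, against 7.78 and 9.69 on day 2 (-1.58, adjusted p = 0.0531). These are genes of matrix and mesenchyme. Nfix, a nuclear factor I gene, was at 7.75 and 7.72 on day 4, against 7.68 and 9.56 on day 2. The zinc-finger factor gene Osr2 was at 7.26 and 7.17 on day 4, against 7.06 and 9.09 on day 2. Sema3a, a secreted guidance protein, was at 6.44 and 6.58 on day 4, against 6.52 and 8.68 on day 2. Dppa5a, a pluripotency gene, was at 7.003 and 6.82 on day 4, against 7.38 and 9.63 on day 2. In these 7 the D4 arrays were closer to D2 replicate 1 than to replicate 2. For Lama1, Cdh11 and Dppa5a both D4 arrays were below both D2 arrays. Without D2 replicate 1 the differences were -2.24 (Lama1), -2.08 (Col1a1), -2.54 (Cdh11), -1.83 (Nfix), -1.88 (Osr2), -2.18 (Sema3a) and -2.72 (Dppa5a). With both D2 arrays, Cdh11 alone of the 7 was called in some settings, namely with the replicate block in 16 arrays (adjusted p = 0.0298), with array weights (0.0335) and over the 16000 brightest probe sets (0.028). Of the feeder fibroblast markers, 8 of 10 were measured and none was called. Their mean level was 7.17 and 7.08 on day 4, against 7.10 and 7.76 on day 2, and 10.30 and 9.93 in ES. Col1a1 and Col1a2 were the 2 higher by more than 1 in D2 replicate 2. The part of feeder RNA in the difference between the D2 arrays was not tested. Nes, Car14 and Lefty1 were higher in D2 replicate 1. Nes, nestin of neural progenitors, was at 6.69 and 6.79 on day 4, against 8.93 and 7.34 on day 2 (-1.40, adjusted p = 0.0669). Car14, a carbonic anhydrase, was at 7.09 and 7.09 on day 4, against 8.59 and 7.43 on day 2 (-0.92, adjusted p = 0.0832). Lefty1, a Nodal antagonist, was at 12.20 and 12.11 on day 4, against 12.71 and 11.58 on day 2 (0.01, adjusted p = 0.993). Without D2 replicate 2 the difference was -2.19 for Nes and -1.50 for Car14. Nes was called with the replicate block in 16 arrays (adjusted p = 0.0203), with array weights (0.0487) and over the 16000 brightest probe sets (0.0356). Of 12 neuroectoderm genes and 15 blood and endothelium genes none was called, where 1.87% of all genes were. Of 13 parietal endoderm genes Fst and Vim fell.

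**Figure D3:**
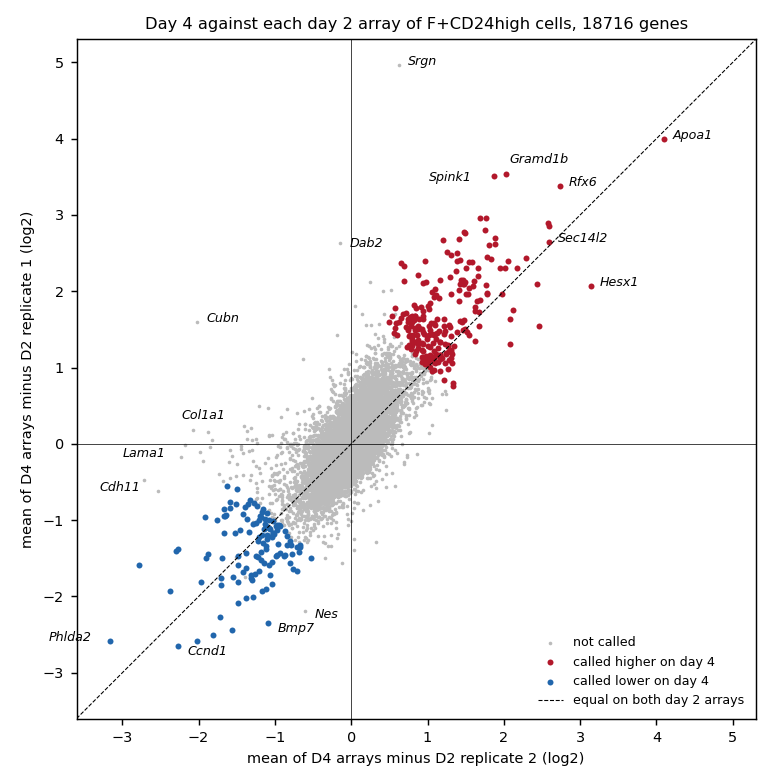
The mean of the 2 F+CD24high D4 arrays minus D2 replicate 2 (x axis) and minus D2 replicate 1 (y axis), in log2 units, for 18716 genes (red, called higher on day 4, blue, called lower, grey, not called). The dashed line marks an equal difference to both D2 arrays. Most red points, 193 of 230, lie above it, and Srgn, Dab2 and Cubn are the grey points far from it.

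The called genes were also set against the undifferentiated cells. The counts that follow were not made over all genes, so they single out nothing about the called genes. Of the 230 higher genes, both D4 arrays were above both ES arrays in 215, and both D2 arrays in 125, with 65 overlapping ES and 40 below it on day 2. Of the 120 lower genes, the D4 arrays were below ES in 102 and the D2 arrays in 61, with 22 overlapping and 37 above. Mixl1 and Bmp7 are among those above ES on day 2, Bmp7 being at 8.02 and 7.60 in ES. The mean of 8 feeder fibroblast markers was 10.30 and 9.93 in ES. In F+CD24high cells it was 7.17 and 7.08 on day 4, against 7.10 and 7.76 on day 2. The part of feeder RNA in the differences from ES was not tested.

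The change between the days was then set against that of F+CD24low cells of the same medium and days, where 83 genes (0.443%) were called between D4 and D2, 69 (0.369%) higher and 14 (0.0748%) lower. The 230 and the 120 genes were chosen by their change in F+CD24high cells, so a larger median there was set by the choice. Genes of the same sign were not counted over all genes. The median difference of the 230 higher genes was 1.27 in F+CD24high cells and 0.32 in F+CD24low cells, and 204 had the same sign in both gates, 16 of them called in both. Of the 120 lower genes, with medians of -1.21 and -0.13, 81 had the same sign and 4 were called in both. The difference between the 2 day changes was tested in the same fit and was called in 197 genes (1.05%), 95 (0.508%) above 0 and 102 (0.545%) below. It was called in the direction of the change for 75 of the 230 and 53 of the 120, counts that reuse the F+CD24high arrays by which those genes were chosen. The count of 197 was 374 without F+CD24high D2 replicate 2, 102 without F+CD24high D4 replicate 1, 130 without F+CD24low D2 replicate 2, 125 without F+CD24low D4 replicate 1 and 121 without F+CD24low D4 replicate 2.

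Apoa1 was at 8.42 and 9.06 in F+CD24low cells on day 4, against 7.76 and 7.94 on day 2, and the day change in F+CD24high cells exceeded it by 3.15 ± 0.24, adjusted p = 0.000287. For the genes that follow, the value in brackets is this difference between the 2 day changes. Rfx6 was at 7.11 and 7.29 on day 4, against 6.59 and 6.34 on day 2 (2.33 ± 0.33, adjusted p = 0.00646). Tbx20 was at 7.45 and 7.58 on day 4, against 8.10 and 7.34 on day 2 (2.31 ± 0.37, adjusted p = 0.0131). Rarres1 was at 5.59 and 4.98 on day 4, against 5.26 and 5.36 on day 2 (2.30 ± 0.34, adjusted p = 0.00877). These day changes were more positive in the CD24-high gate. In F+CD24low cells the days overlapped for Tbx20 and Rarres1. Nxf7, of a family of RNA export factors, was at 9.56 and 9.68 on day 4, against 7.11 and 8.23 on day 2 in F+CD24high cells (day change 1.95, adjusted p = 0.00146), and at 6.02 and 6.24 on day 4, against 7.25 and 6.91 on day 2, in F+CD24low cells (2.90 ± 0.38, adjusted p = 0.00463). Spink1, Sfrp5, Hesx1 and Gramd1b behaved otherwise. They were called in F+CD24low cells too, by 2.86, 1.93, 1.67 and 1.92, and the difference between the gates was not called for any of them (-0.17 ± 0.54, adjusted p = 0.956 for Spink1 and 0.87 ± 0.47, adjusted p = 0.562 for Gramd1b).

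The day changes of Pou5f1, Nanog, Tdgf1, Ccnd1, Phlda2 and Etv1 were more negative in F+CD24high than in F+CD24low cells. In the latter the days overlapped for Pou5f1, and Etv1 did not fall. In F+CD24low cells Pou5f1 was at 12.72 and 12.52 on day 4, against 12.69 and 12.82 on day 2 (-2.17 ± 0.35, adjusted p = 0.0132). Nanog was at 12.28 and 12.34 on day 4, against 12.51 and 12.49 on day 2 (-1.35 ± 0.17, adjusted p = 0.00368). Tdgf1 was at 13.03 and 12.89 on day 4, against 13.20 and 13.14 on day 2 (-1.31 ± 0.19, adjusted p = 0.00859). On both days these were levels near those of ES. Ccnd1 was at 11.41 and 11.25 on day 4, against 11.44 and 11.57 on day 2 (-2.29 ± 0.21, adjusted p = 0.000878). Phlda2 was at 11.14 and 11.53 on day 4, against 11.96 and 12.02 on day 2 (-2.22 ± 0.24, adjusted p = 0.00157). Etv1 was at 11.58 and 11.54 on day 4, against 11.47 and 11.45 on day 2 (-2.29 ± 0.40, adjusted p = 0.0214). Mixl1 fell in both gates, with a day change of -1.04 in F+CD24low cells and no called difference (-0.49 ± 0.23, adjusted p = 0.483). Dkk1 was high on both days in F+CD24high cells and rose in F+CD24low cells, where it was at 11.59 and 11.75 on day 4, against 9.24 and 8.86 on day 2 (-2.30 ± 0.24, adjusted p = 0.00149 for the difference of changes).

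**Figure D4:**
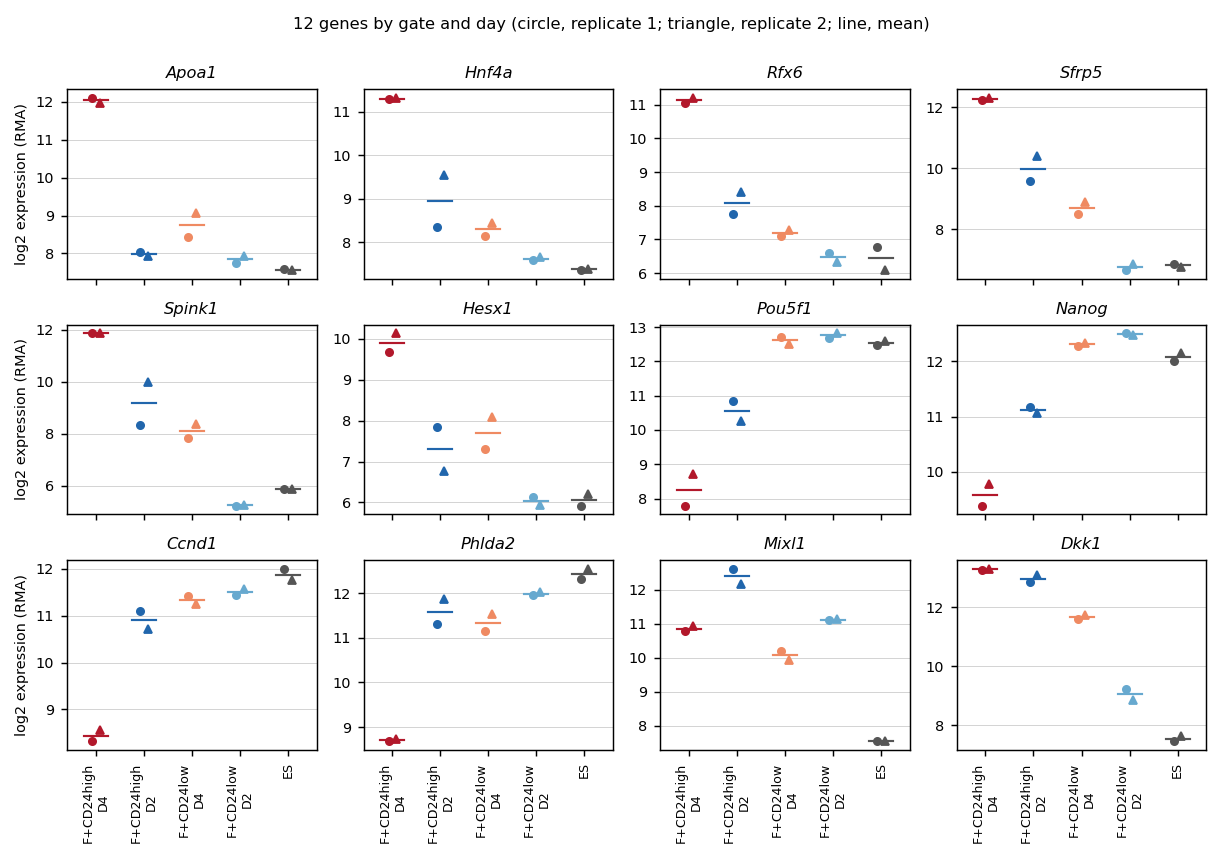
Log2 expression (RMA, y axis, its own range in each panel) of 12 genes in F+CD24high D4, F+CD24high D2, F+CD24low D4, F+CD24low D2 and ES cells, with a circle for replicate 1, a triangle for replicate 2 and a line for the mean. Pou5f1 is at 7.79 and 8.71 in F+CD24high D4 cells while all F+CD24low and ES arrays lie above 12, and Dkk1 is above 12 on all 4 F+CD24high arrays.

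**Figure D5:**
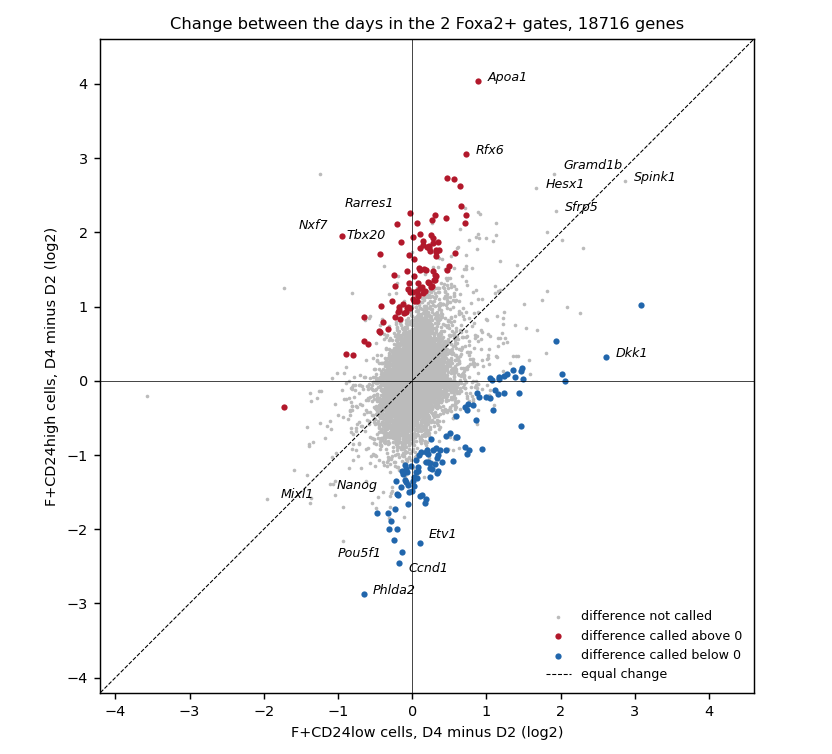
Log2 difference between D4 and D2 in F+CD24high cells (y axis) and in F+CD24low cells (x axis) for 18716 genes, with red and blue points for a called difference between the 2 changes above and below 0, grey points for none, and a dashed line for an equal change. Apoa1 lies at 4.04 on the y axis and 0.89 on the x axis, and Spink1 lies close to the dashed line.

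Against T+CD24low cells of the mesoderm cultures, where lineage, CD24 gate and medium differ together and cannot be told apart, 325 genes (1.74%) were called between the days in those cells. Of these, 229 (1.22%) were higher and 96 (0.513%) lower. The difference between the day changes was called in 607 genes (3.24%), 262 (1.4%) above 0 and 345 (1.84%) below. The 230 higher genes had a median of 0.15 in T+CD24low cells, with 157 of the same sign and 20 called in both, and 128 were called for the difference. The 120 lower genes had a median of -0.06 there, with 68 of the same sign, 10 called lower and 9 called higher, and 70 called for the difference. As above, both sets were chosen by their change in F+CD24high cells, which sets the larger size there and enters the test of the difference. Apoa1 (3.89 ± 0.24, adjusted p = 1.26e-05), Rfx6 (3.41 ± 0.33, adjusted p = 0.000189), Spink1 (2.998 ± 0.54, adjusted p = 0.00778) and Sec14l2 (2.74 ± 0.12, adjusted p = 2.29e-06) had the largest positive differences together with Eras. This Ras family gene of stem cells was at 6.07 and 6.19 on day 4, against 8.49 and 8.21 on day 2, in T+CD24low cells, and at 9.90 and 9.98 on day 4, against 9.04 and 9.33 on day 2 in F+CD24high cells (2.98 ± 0.39, adjusted p = 0.00106).

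The largest negative differences were of genes that rose in the mesoderm cultures. Bmp4, a ligand of ventral and posterior mesoderm, was at 12.31 and 12.06 on day 4, against 9.58 and 9.51 on day 2, in T+CD24low cells, and at 7.25 and 7.35 on day 4, against 7.75 and 8.89 on day 2 in F+CD24high cells (day change -1.02, adjusted p = 0.0871), a difference of changes of -3.66 ± 0.45, adjusted p = 0.000739. Igfbp4 was at 10.85 and 10.63 on day 4, against 8.85 and 8.83 on day 2 in T+CD24low cells (-3.75 ± 0.33, adjusted p = 0.000109, for the difference of changes). Pmp22, a membrane protein best known from myelin, was at 12.14 and 12.06 on day 4, against 9.22 and 9.46 on day 2 there, and at 7.99 and 7.91 on day 4, against 8.38 and 9.45 on day 2 in F+CD24high cells (-3.73 ± 0.36, adjusted p = 0.000189). All 3 rose in T+CD24low cells, while in F+CD24high cells Igfbp4 fell and Bmp4 and Pmp22 were not called. Without D2 replicate 1 their changes in F+CD24high cells were -1.59 for Bmp4 and -1.50 for Pmp22. Without D2 replicate 2 they were -0.45 and -0.43. Over the 16000 brightest probe sets Bmp4 was called lower in these cells (adjusted p = 0.0471). Hoxc8, a posterior Hox gene, was at 10.12 and 9.71 on day 4, against 6.69 and 6.56 on day 2 in T+CD24low cells and at 6.66 and 6.78 on day 4, against 6.52 and 7.41 on day 2 in F+CD24high cells (-3.54 ± 0.40, adjusted p = 0.000467). Gprc5a, an orphan receptor, was at 8.20 and 8.54 on day 4, against 6.20 and 6.26 on day 2 in T+CD24low cells and fell in F+CD24high cells, at 8.16 and 8.15 on day 4, against 9.68 and 9.34 on day 2 (-3.50 ± 0.18, adjusted p = 3.19e-06). Bmp7 and Wnt5a also rose in T+CD24low cells, by 1.62 and 2.75, and Bmp2 by 2.73.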

How the data were processed

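The authors hybridised RNA of FACS-sorted cells to Affymetrix Mouse Gene ST 1.0 arrays, and the deposited values are log2 expression levels after RMA, made by the authors with oligo 1.48.0. The build of the probe annotation is not given in the sources used here. Of 35556 probe sets, 21789 carried 1 symbol, 1621 several and 12146 none, and 21698 of the single symbols matched RefSeq. The 32000 probe sets of highest mean were kept, as in the study's methods. A mean for each of the 8 groups was fitted to all 16 arrays with limma 3.58.1 in R 4.3.3 (eBayes, 8 residual and 3.34 prior degrees of freedom), and p-values were adjusted by Benjamini-Hochberg over the 32000. A gene is its brightest single-symbol probe set, and a call is an absolute log2 difference above 1 with adjusted p below 0.05. Errors after ± are standard errors of the fit, with n = 2 arrays a group.

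Lists came from textbook knowledge and the study. Members and lists were chosen with earlier results of these data known. Named genes were the sort genes Foxa2 and Cd24a, those the study names, and the 20 highest and lowest called differences. Further named genes were those of extreme disagreement between the D2 arrays and the 5 highest and lowest called for each difference of day changes. List members, called or among the brightest, were named too. Predicted genes, clones and small RNAs (14 of the 350) were counted and not named. The fit was tested on simulated data. Promoter sequences are from RefSeq (GRCm38.p6). Alternatives were the probe sets tested, the arrays fitted, the replicate block, the variance model, array weights, scaling, the call rule, the probe set of a gene, and each array left out.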

Additional observations from a re-analysis of the deposited data

Results flagged for a closer look

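The day change of F+CD24high cells differed from that of F+CD24low cells, by the test of the difference itself, in 197 genes. The 5 lowest were Dkk1 (-2.30), Ccnd1 (-2.29), Etv1 (-2.29), Phlda2 (-2.22) and Pou5f1 (-2.17), and the 5 highest Apoa1 (3.15), Nxf7 (2.90), Rfx6 (2.33), Tbx20 (2.31) and Rarres1 (2.30), as the F+CD24high change minus the F+CD24low change on the log2 scale.

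Against T+CD24low cells the same test called 607 genes. The 5 lowest were Igfbp4 (-3.75), Pmp22 (-3.73), Bmp4 (-3.66), Hoxc8 (-3.54) and Gprc5a (-3.50), and the 5 highest Apoa1 (3.89), Rfx6 (3.41), Spink1 (2.998), Eras (2.98) and Sec14l2 (2.74). No cause of these differences was tested, and lineage, gate and medium cannot be told apart in the second.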

How the results depend on the processing

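The count of 350 became 1644 by adjusted p alone, 23 under treat and 48 in a fit of only the 4 F+CD24high arrays. The replicate number as a block gave 357 in the 16 arrays, with all 350 among them, and 0 in the 4 arrays, where the smallest adjusted p of a named gene was 0.0633 (Apoa1). Same-numbered D2 and D4 arrays deviated together at r = 0.162, and over all pairs of groups such correlations ran from -0.297 to 0.292. With 2 numbers a group, and no label tying a number to a culture or day, no pairing was assumed. Leaving out 1 F+CD24high array gave 284 to 531 calls, with no change of sign among the 350 and 184 called each time. The other settings gave 258 to 356. A fit with 1 array in a group cannot weigh the disagreement between the 2 arrays of that group. The count of 197 for the difference from F+CD24low cells was 102 to 374 with 1 array left out (374, 102, 130, 125 and 121 in the order given above) and 206 with the block, and that of 607 from T+CD24low cells was 494 to 771 and 623 with the block. The 123 genes that differ between the D2 arrays were 79 among the 16000 brightest probe sets. Of 133 genes named, called and uncalled, 82 were called, and all 82 lost the call with the block in the 4 arrays. Of the 82, 64 lost the call in the 4-array fit without the block and 2 with arrays centred on the median. None lost it with the block in 16 arrays, which added Cdh11 and Nes.

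Uncalled differences changed sign with 1 array left out, with these lowest and highest values: Cer1 -0.17 and 0.74, Col1a1 -2.08 and 0.18, Cubn -2.02 and 1.60, Dab2 -0.14 and 2.63, Gata6 -0.080 and 0.0020, Hoxc8 -0.70 and 0.19, Kit -0.29 and 0.13, Lefty1 -0.56 and 0.57, Nfix -1.83 and 0.054, Osr2 -1.88 and 0.16, Sox17 -0.22 and 0.48, and Zeb1 -0.53 and 0.021. The cause was not tested.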
